A study of Saccharomyces cerevisiae with 6 samples.

Results

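The genes described here are 10 genes of Saccharomyces cerevisiae from NAD synthesis from tryptophan and from NAD salvage. They are BNA1, BNA2, BNA3, BNA4, BNA5, BNA6, TNA1, PNC1, NPT1 and QNS1, of which BNA3 lies on a side branch. They were chosen by gene symbol in the array's annotation, and each had 1 probe set, so 10 of the 5449 genes measured are described. The set is not complete: BNA7, NMA1 and NMA2, which also act on the way to NAD, are outside it and are given further below. Expression was measured in BY4743, a diploid laboratory strain that lacks working HIS3, LEU2 and URA3 and is heterozygous for LYS2 and MET15. All cultures were started from a single colony, grew exponentially in minimal medium at 30 °C and were treated at an optical density (OD600) of 1.0. The 3 LoaOOH cultures received 75 µM linoleic acid hydroperoxide, a lipid peroxide, at a dose described as arresting, and the 3 control cultures received the same volume of its solvent, methanol. RNA was taken after 1 h and each culture was hybridised to its own Affymetrix Yeast Genome 2.0 array, which has a single colour. The nicotinic acid and tryptophan content of the medium is not given in the sources used here.

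NAD is the carrier of electrons for many oxidations in the cell, and its phosphorylated form NADP, once reduced, supplies the electrons for peroxide defence. Yeast builds the ring of NAD from tryptophan through kynurenine, in a route that consumes molecular oxygen, or takes up nicotinic acid and recycles nicotinamide. Both routes meet at nicotinic acid mononucleotide, which is joined to an adenylate and then amidated to NAD. In yeast the BNA genes are known to be repressed by the NAD-dependent deacetylase Hst1 with its DNA-binding partner Sum1 and the linker Rfm1, and activated by Bas1 with Pho2.

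Values are RMA expression on the log2 scale, in which a step of 1 is a doubling of signal, and a difference is the LoaOOH mean less the methanol mean, with its standard error (SE) from limma's fit over all 5498 probe sets that name a gene. A gene was called higher or lower at a Benjamini-Hochberg adjusted p under 0.05, and the words rose and fell are kept for such genes. The values of an array show where a message stands relative to the other messages, and a change shared by most of them would not appear. Bacterial spike-in messages had 36 probe sets, whose mean was 7.44 ± 0.165 (SD, n = 3) with methanol and 6.93 ± 0.125 with LoaOOH, and the 17 for ribosomal RNA were lower by 0.639 (exact permutation p = 0.1 for each, the smallest that 3 against 3 arrays allow). Scaling each array to these spike-ins adds 0.518 to every difference and moves the median of all tested probe sets from -0.03 to 0.48, and the share of called probe sets that are higher goes from 46.7% to 91.3%. Whether equal amounts of spike-in were added per unit of total RNA is not given in the sources used here. The 27 probe sets for hybridisation controls read 11.37 with methanol and 11.36 with LoaOOH (exact permutation p = 0.8). The cause of the shift in the spike-ins was not tested, and it is not read as a measured change in total message. Directions below are therefore given in both scalings. Tests in the spike-in scaling use each probe set's own variance with the 4 degrees of freedom of 6 arrays. The spike-in mean of an array adds the same error to all of its genes, so calls in that scaling are not independent of each other. The difference between 3' and 5' control probe sets, a sign of RNA or labelling quality, moved by -0.147 to 0.584 over 7 yeast messages, and its part in the results was not tested. As checks of the strain, URA3 read 3.25 to 3.85 and LEU2 5.23 to 5.67, against 5.15 for the brightest of 17 control probe sets with no yeast target. HIS3 read 10.95 to 11.02 in methanol and 12.37 to 12.46 in LoaOOH. It was called higher by 1.43 (adjusted p = 1.3e-08), and by 1.95 against the spike-ins (adjusted p = 0.00247). Whether the HIS3 probes lie outside the deleted part is not known here. Of 13 haploid genes, which a diploid represses, signals ran from 5.003 to 10.56, the highest being RME1, and no haploid array is at hand to set them against.

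The NAD genes did not move together. BNA3, PNC1 and BNA6 rose, TNA1, BNA5, BNA1, NPT1 and QNS1 fell, and BNA2 and BNA4 were not called. The largest rise was that of BNA3 (1.64-fold) and the largest fall that of TNA1 (1.99-fold). A count of 8 called genes of 10 is close to the 78.7% of all probe sets that were called, of which 36.8% rose and 41.9% fell. The same 8 genes had groups with no overlap, as had 81.1% of all probe sets, and no NAD gene reached a 2-fold difference, against 9.17%. The median size of a difference, either way, was 0.31 in the NAD genes and 0.34 over all probe sets. Relative to the spike-ins 5 NAD genes were called higher (54.4% of all probe sets), 1 lower (5.18%) and 4 not called, where 59.6% of all probe sets were called. TNA1 was the member called lower in both scalings, and BNA3, BNA6 and PNC1 were called higher in both.

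**Figure D1:**
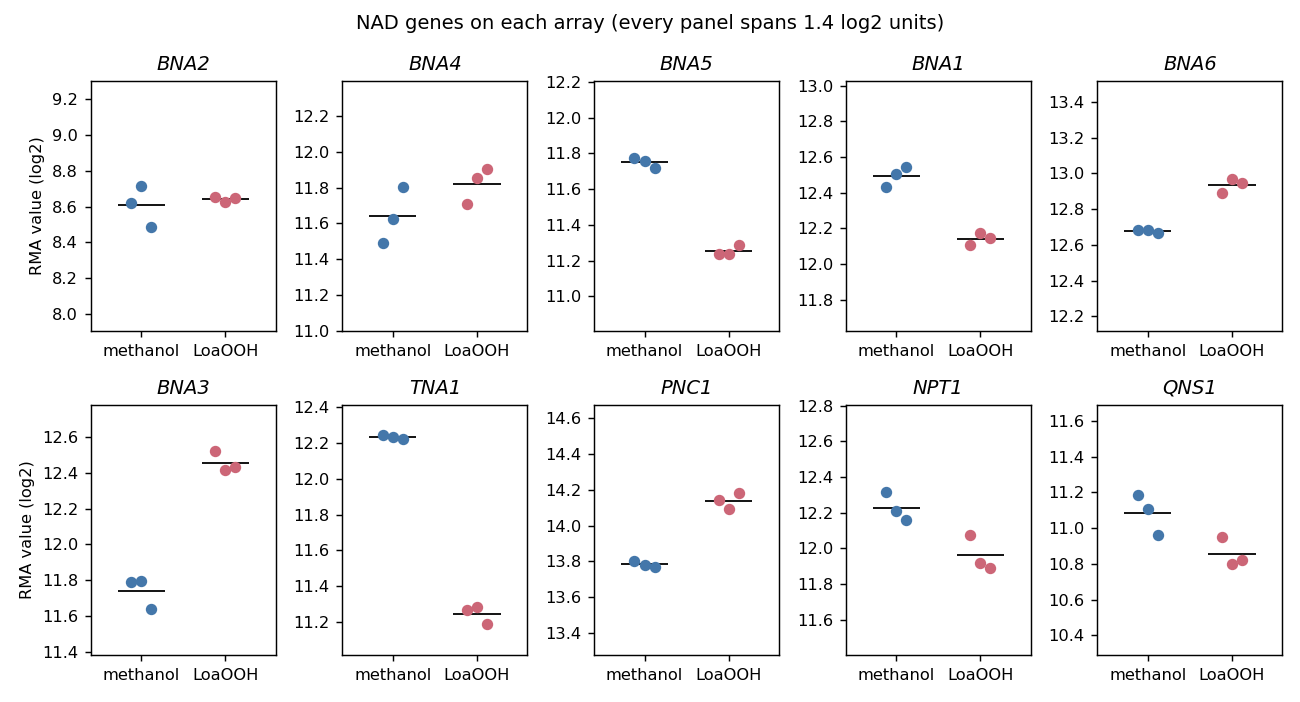
Expression of the 10 NAD genes on each of the 6 arrays, as RMA values on the log2 scale. Points are arrays (3 methanol, 3 LoaOOH), black lines are group means, and every panel spans the same number of log2 units. TNA1 reads 12.23 to 12.24 in methanol and 11.19 to 11.28 in LoaOOH, the widest separation, while the groups overlap for BNA2 and BNA4.

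The route from tryptophan begins with BNA2, the haem-containing dioxygenase that opens the ring of tryptophan. Its message read 8.62, 8.72 and 8.49 in the 3 methanol arrays and 8.65, 8.63 and 8.65 with LoaOOH. All 3 LoaOOH values lay inside the range of the methanol values. The difference was 0.04 (SE 0.059, n = 3 per group, adjusted p = 0.601), with a 95% confidence interval from -0.10 to 0.17. Against the spike-ins BNA2 was called higher by 0.55 (adjusted p = 0.0324).

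BNA4 encodes the flavin-dependent monooxygenase that hydroxylates kynurenine in the mitochondrial outer membrane. It read 11.49, 11.63 and 11.80 in methanol and 11.71, 11.85 and 11.90 in LoaOOH. The highest methanol culture stood above the lowest LoaOOH culture, so the groups overlapped. The difference of 0.18 (SE 0.083) missed the threshold (adjusted p = 0.0679, 95% interval -0.005 to 0.37). Without methanol replicate 3 it was 0.26 and called higher (adjusted p = 0.0105), and without LoaOOH replicate 1 it was 0.24 (adjusted p = 0.0325). Its call also changed under quantile normalisation, median centring, a variance trend, array weights and the filter on dim probe sets (adjusted p = 0.0027 to 0.0493). With the replicate number as a block it was called higher too (adjusted p = 0.00575). Against the spike-ins it stood at 0.70 and was not called (adjusted p = 0.0516).

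BNA5 is kynureninase, the enzyme that splits hydroxykynurenine into hydroxyanthranilate and alanine. The methanol arrays gave 11.77, 11.76 and 11.72, and the LoaOOH arrays 11.23, 11.24 and 11.29. The groups were well apart, and BNA5 fell 1.41-fold (difference -0.50, SE 0.042, adjusted p = 5.05e-06). Relative to the spike-ins the difference was 0.02 and not called (adjusted p = 0.884).

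BNA1, the iron-dependent dioxygenase that acts on hydroxyanthranilate, read 12.43, 12.50 and 12.54 in methanol and 12.11, 12.17 and 12.15 in LoaOOH. Every LoaOOH value was below every methanol value. BNA1 fell 1.27-fold in the deposited scaling (difference -0.35, SE 0.046, adjusted p = 0.000103) and stood at 0.17, not called, against the spike-ins (adjusted p = 0.374).

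BNA6, the phosphoribosyltransferase that turns quinolinate into nicotinic acid mononucleotide and closes this route, went the other way. It read 12.69, 12.68 and 12.66 in methanol and 12.89, 12.97 and 12.95 in LoaOOH, with no overlap. It rose 1.20-fold (difference 0.26, SE 0.042, adjusted p = 0.000376), and by 0.78 against the spike-ins (adjusted p = 0.012).

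BNA1 and BNA6, which are consecutive steps, thus changed in opposite directions in the deposited scaling. A difference taken between 2 genes on the same array is not moved by an offset added to the whole array, such as the spike-in scaling. Each pair shown here and below sets a gene that rose against a gene that fell. The direction of its shift therefore follows from the differences of the 2 genes, and the shift is no separate test. BNA6 minus BNA1 read 0.254, 0.179 and 0.122 in methanol and 0.784, 0.795 and 0.798 in LoaOOH, so the balance between the last enzyme and the one before it moved by 0.61 towards BNA6 (0.54 after quantile normalisation). Over the 5 members on the main line (BNA2, BNA4, BNA5, BNA1 and BNA6) the median difference was 0.04, beside -0.03 over all tested probe sets. BNA7, a step of that line that is not among the members, is given further below.

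BNA3 lies on a side branch: it is an aminotransferase that converts kynurenine to kynurenic acid and so takes it out of NAD synthesis. Its values were 11.79, 11.79 and 11.64 in methanol and 12.52, 12.42 and 12.43 in LoaOOH. The lowest LoaOOH culture stood well above the highest methanol culture. BNA3 rose 1.64-fold (difference 0.72, SE 0.056, adjusted p = 3.22e-06), and 90.9% of all probe sets had a lower difference. Against the spike-ins the rise was 1.23 (adjusted p = 0.00431). On the same arrays BNA3 minus BNA5, the branch enzyme against kynureninase, was 0.0163, 0.0366 and -0.0785 in methanol and 1.29, 1.18 and 1.14 in LoaOOH. That difference moved by 1.21 towards BNA3. BNA5 acts a step further on, and BNA4, which like BNA3 acts on kynurenine itself, differed by 0.18 and was not called.

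**Figure D2:**
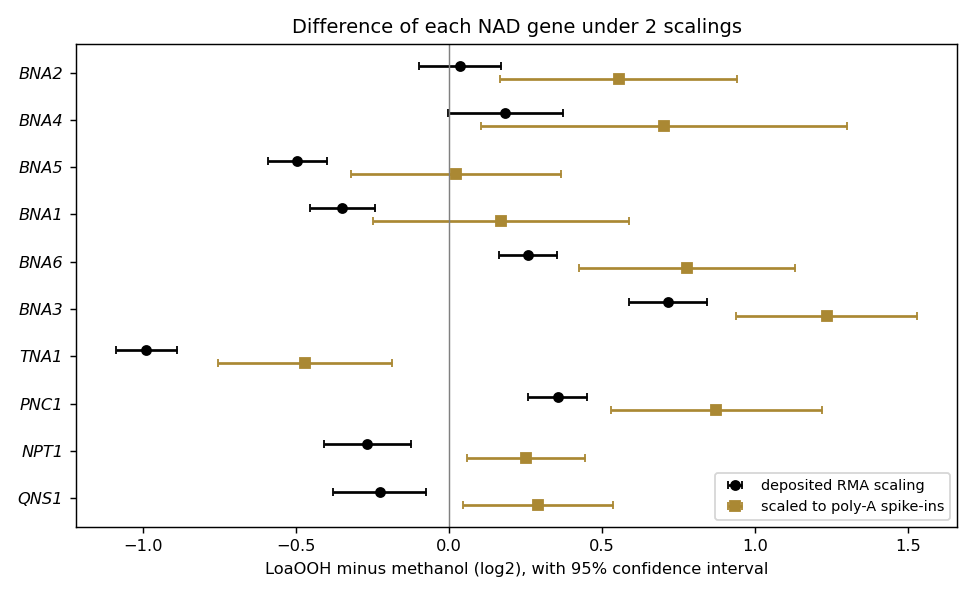
Difference between LoaOOH and methanol for each NAD gene on the log2 scale, with 95% confidence intervals (n = 3 per group), in the deposited RMA scaling (black circles) and after scaling to the poly-A spike-ins with unmoderated variances (ochre squares). TNA1 lies below 0 in both scalings at -0.99 and -0.47, and BNA3 lies above 0 at 0.72 and 1.23, whereas BNA5, BNA1, NPT1 and QNS1 change sides.

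TNA1 is the high-affinity permease that brings nicotinic acid into the cell. The methanol arrays read 12.24, 12.24 and 12.23, and the LoaOOH arrays 11.27, 11.28 and 11.19. TNA1 had the widest gap between groups among the 10 genes. It fell 1.99-fold (difference -0.99, SE 0.044, adjusted p = 9.2e-08), and 4.24% of all probe sets had a lower difference. Relative to the spike-ins it was still lower, by 0.47 (difference -0.47, adjusted p = 0.0227).

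PNC1, the nicotinamidase that turns nicotinamide into nicotinic acid and relieves the inhibition of Sir2 by nicotinamide, read 13.80, 13.78 and 13.77 in methanol and 14.14, 14.10 and 14.18 in LoaOOH. Each group was tight and the groups did not overlap. PNC1 rose 1.28-fold (difference 0.36, SE 0.043, adjusted p = 5.24e-05), and by 0.87 against the spike-ins (adjusted p = 0.00928).

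NPT1 attaches the nicotinic acid so taken up or recovered to phosphoribose. It gave 12.32, 12.21 and 12.16 in methanol and 12.07, 11.92 and 11.89 in LoaOOH, with a narrow gap between the lowest methanol and the highest LoaOOH culture. It fell 1.20-fold in the deposited scaling (difference -0.27, SE 0.063, adjusted p = 0.00358) and turned to 0.25, called higher, against the spike-ins (adjusted p = 0.0396). PNC1 minus NPT1 on the same array went from 1.49, 1.57 and 1.61 to 2.07, 2.18 and 2.29, a shift of 0.62, and PNC1 minus TNA1 shifted by 1.34. Message for the permease and for the nicotinamidase therefore changed unequally. The spike-in scaling cannot alter that shift, so it is no second test of it.

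QNS1, the glutamine-dependent synthetase that makes NAD in the last step shared by both routes, read 11.18, 11.11 and 10.96 in methanol and 10.95, 10.80 and 10.82 in LoaOOH. The groups came within 0.0123 of touching, the smallest gap among the 8 called genes. QNS1 fell 1.17-fold (difference -0.23, SE 0.067, adjusted p = 0.0115), was not called at an adjusted p under 0.01, and against the spike-ins stood at 0.29, not called (adjusted p = 0.0512). The sign of its difference thus depended on the scaling.

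A test against a log2 difference of 0.5 rather than against 0 (limma's treat, adjusted p under 0.05) called BNA3 and TNA1 alone among the 10 genes.

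**Figure D3:**
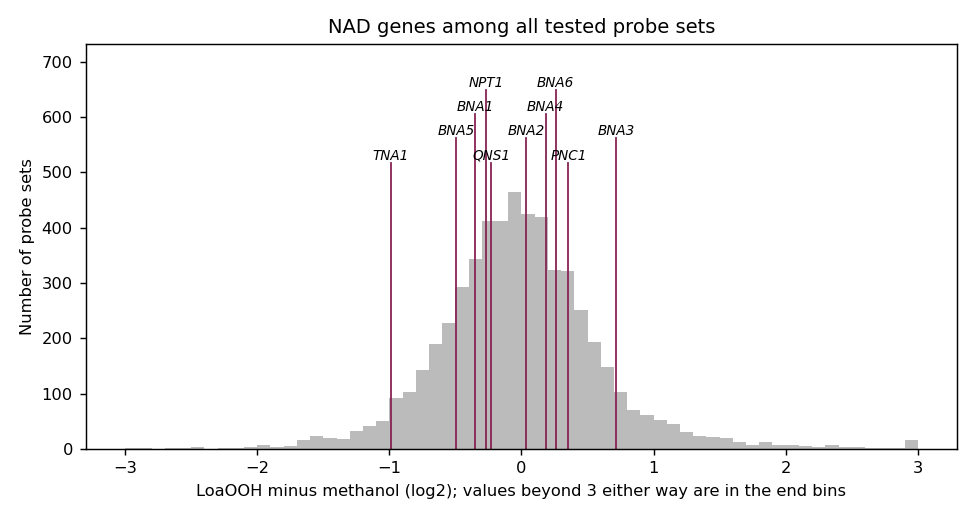
Histogram of the difference between LoaOOH and methanol (log2, deposited scaling) over all 5498 tested probe sets, in grey, with a vertical line at each NAD gene. From BNA5 at -0.50 to PNC1 at 0.36 the lines lie in the body of the histogram, TNA1 at -0.99 lies in its lower shoulder and BNA3 at 0.72 in its upper shoulder.

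Of 19 other enzymes and carriers of NAD metabolism, 11 rose, 6 fell and 2 were not called (median 0.23, beside -0.03 over all probe sets, of which 78.7% were called, 36.8% higher and 41.9% lower). Against the spike-ins 11 were higher, 1 lower and 7 not called, beside 54.4% higher and 5.18% lower of all probe sets. No test of the list itself was made. The largest rises were those of POS5, the mitochondrial kinase that acts on NADH (2.02-fold, difference 1.02, SE 0.046, adjusted p = 9.93e-08), NMA2, an adenylyltransferase (1.86-fold), and NRK1, nicotinamide riboside kinase (1.55-fold). POS5 read 9.74 to 9.75 in methanol and 10.72 to 10.84 in LoaOOH. The largest falls were those of URH1, a hydrolase of nicotinamide riboside (1.84-fold, difference -0.88, SE 0.045, adjusted p = 1.99e-07), POF1, an adenylyltransferase known to act on nicotinamide mononucleotide (1.60-fold), and SDT1, a nucleotidase (1.58-fold). Of these 3, URH1 was also called lower against the spike-ins (-0.36, adjusted p = 0.043), and POF1 and SDT1 were not called there (adjusted p = 0.515 and 0.526).

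Genes that encode related enzymes differed from each other. NMA1, UTR1, YEF1 and BNA7 were singled out after their values were seen. NMA1 and NMA2 each encode an adenylyltransferase of the step ahead of QNS1, where both routes have joined, and NMA1 rose by 0.35 (adjusted p = 0.000362), beside 0.89 for NMA2. POF1, which acts on the amidated mononucleotide, stood at -0.68. NMA2 minus POF1 on the same array moved from -0.953 on average in methanol to 0.621 in LoaOOH. Of the NAD kinases, which make NADP, UTR1 in the cytosol rose by 0.34 (adjusted p = 0.000102) and YEF1 was lower by 0.65 (difference -0.65, adjusted p = 1.77e-06; -0.14 and not called against the spike-ins, adjusted p = 0.405). POS5 minus YEF1 moved from 1.14 to 2.81 on average. BNA7, the formamidase between BNA2 and BNA4 in the route from tryptophan, was not called (0.08, adjusted p = 0.29).

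Of 6 genes whose products use up NAD, 3 rose, 0 fell and 3 were not called, beside 78.7% of all probe sets called. The sirtuin genes HST2 (0.50, adjusted p = 5.94e-05), HST3 (0.48, adjusted p = 7.33e-06) and HST1 (0.26, adjusted p = 0.000988) rose. SIR2, the silencing deacetylase (-0.15, adjusted p = 0.123), HST4 (-0.05, adjusted p = 0.457) and the tRNA phosphotransferase gene TPT1 (-0.04, adjusted p = 0.61) did not pass the threshold. Relative to the spike-ins 5 of the 6, SIR2 (0.37) and TPT1 (0.48) among them, were called higher, beside 54.4% of all probe sets. HST4 was not called there (0.47, adjusted p = 0.0655).

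All 5 regulators known to act on BNA genes were called in the deposited scaling, 3 higher and 2 lower, beside 78.7% of all probe sets called, 36.8% higher and 41.9% lower. BAS1, a Myb-type activator, read 9.97, 9.86 and 9.81 in methanol and 11.04, 10.77 and 10.82 in LoaOOH and rose 1.996-fold (difference 0.997, SE 0.074, adjusted p = 2.24e-06). Its homeodomain partner PHO2 rose 1.50-fold (0.59, adjusted p = 4.55e-06). SUM1 read 10.64, 10.66 and 10.50 in methanol and 10.21, 10.19 and 10.04 in LoaOOH and fell 1.37-fold (-0.45, SE 0.064, adjusted p = 0.00015). RFM1 fell 1.31-fold (-0.39, adjusted p = 0.000632), and HST1, the deacetylase of the same complex, rose as given above. Against the spike-ins BAS1, PHO2 and HST1 were called higher, and SUM1 (0.06) and RFM1 (0.13) were not called. HST1 minus SUM1 on the same array moved from 1.23 to 1.94 on average. The BNA genes did not share a direction in the deposited scaling: BNA6 and the side-branch gene BNA3 rose, and BNA1 and BNA5 fell. BNA2, BNA4 and BNA7 were not called. Against the spike-ins BNA1 (0.17) and BNA5 (0.02) were not called, so the opposed directions hold in the deposited scaling only.

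Upstream, 3 of 4 measured TRP genes, which make tryptophan, rose, where 36.8% of all probe sets rose and 41.9% fell. The other, TRP5, was not called (0.16, adjusted p = 0.0556), and was called higher against the spike-ins (0.67, adjusted p = 0.00808). Of 9 measured genes of tryptophan supply and breakdown 5 rose, 2 fell and 2 were not called (median 0.22), and the 7 called genes of 9 are close to the 78.7% of all probe sets. Against the spike-ins 8 were higher and 0 lower, beside 54.4% and 5.18% of all probe sets. TRP4, anthranilate phosphoribosyltransferase, rose 2.34-fold (10.37 to 10.40 in methanol, 11.59 to 11.63 in LoaOOH, difference 1.23, SE 0.04, adjusted p = 1.56e-08). TRP3 rose 2.07-fold (1.05, adjusted p = 9.93e-08) and TRP2, which with TRP3 forms anthranilate synthase, 2.05-fold (1.04, adjusted p = 6.25e-07). The tryptophan permease genes TAT1 (-0.30, adjusted p = 0.000303) and TAT2 (-0.12, adjusted p = 0.0353) fell in the deposited scaling. Against the spike-ins TAT1 was not called (0.22, adjusted p = 0.246) and TAT2 was called higher (0.40, adjusted p = 0.0277). TRP1 was not analysed here. BNA2, which draws on this tryptophan, differed by 0.04, as given above.

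**Figure D4:**
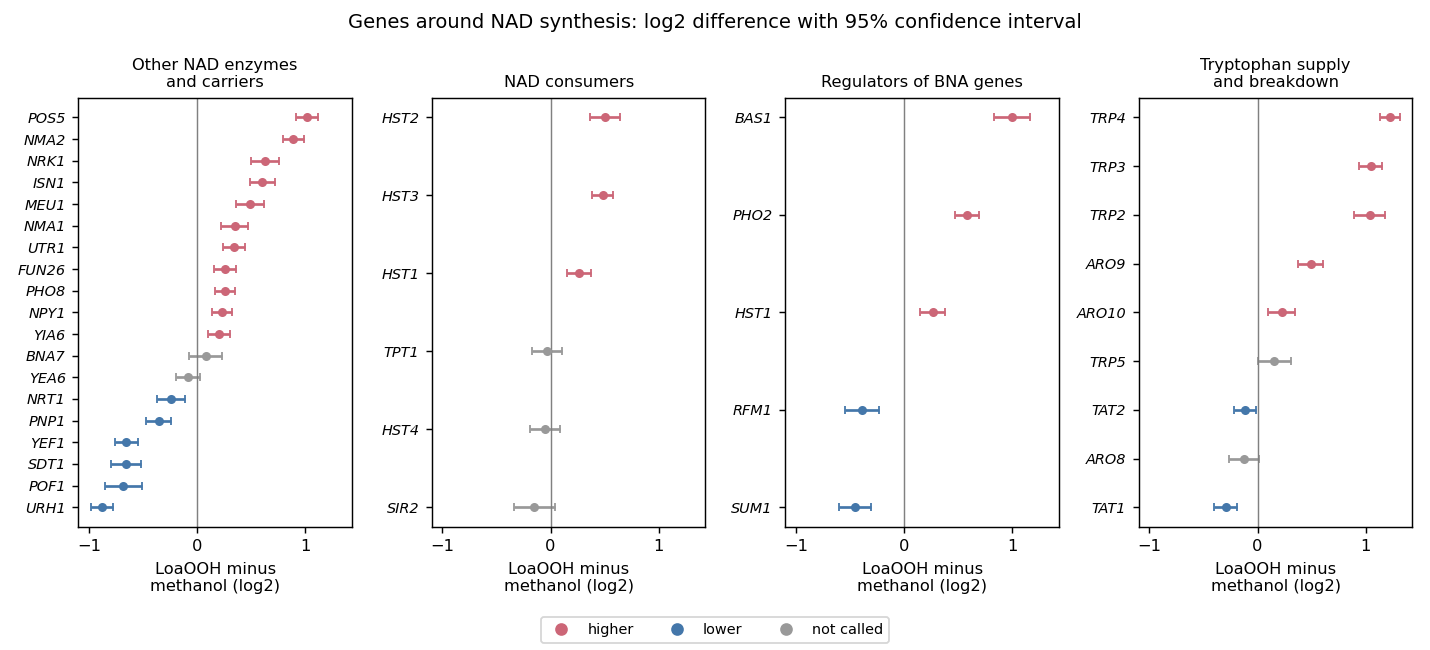
Difference between LoaOOH and methanol (log2, deposited scaling) with 95% confidence intervals (n = 3 per group) for genes around NAD synthesis, in 4 panels by role. Red points were called higher, blue lower and grey not called; HST1 appears in both lists that hold it. POS5 (1.02) leads the enzymes, BAS1 (0.997) the regulators and TRP4 (1.23) the tryptophan genes, and URH1 has the lowest difference (-0.88).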

How the data were processed

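The deposited table holds RMA values on the log2 scale, made by the authors with RMA and Partek per the submitters' processing notes, for 5900 probe sets on 6 arrays; no version, probe mask or genome build is stated. After removal of 184 control probe sets and 218 without a gene, 5498 probe sets of 5449 genes were tested, and all their gene identifiers matched RefSeq's table of assembly R64, used for names. Groups came from the sample titles.

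LoaOOH was compared with methanol with limma (version 3.58.1, R 4.3.3; lmFit, then eBayes; two-sided, no covariate), with Benjamini-Hochberg adjustment over all 5498 probe sets; the procedure was tested on simulated data. The replicates are described as biological. If the cultures shared an inoculum, the p-values measure only the spread between these aliquots, and the number of arrays limits the precision. No array repeated another: identical values made up 0.119% of a pair at most.

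The members and lists were chosen with earlier results of these data known. All 10 members are named. Lists of 8 or fewer genes are named in full, and longer lists by the called members that changed most, up to 3 each way. Spike-in scaling subtracted the mean of the 36 probe sets for dap, lys, phe and thr from each array. In that scaling lmFit was used without eBayes, which the data led to: moderation takes the error of the shared offset as known from 5498 probe sets. Same-numbered arrays deviated from their group means with correlations of 0.310, 0.0491 and 0.258, and differently numbered arrays with -0.297 to 0.133. These values do not exclude a pairing. The numbers were not taken as pairs because no shared day or parent is stated for them, and a fit with the number as a block is given below. No sequences are shown.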

Additional observations from a re-analysis of the deposited data

How the results depend on the processing

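A set of 18 alternatives was run on each NAD gene except BNA2, which the filter on the dimmest 25% of probe sets removed. BNA3 and TNA1 kept their direction and call in all 18, and BNA6 and PNC1 in all but the test against a difference of 0.5. Spike-in scaling with unmoderated variances, chosen after seeing the data, gave 5 genes called higher and 1 lower in place of 3 and 5, and turned BNA1 (0.17), BNA5 (0.022), NPT1 (0.25) and QNS1 (0.29) from lower to above 0. With moderated variances it gave 6 higher and 1 lower, but all genes then had an SE of 0.136, the error of the shared offset counted as if known, so those calls are not used. The test against 0.5 called 1 gene higher, 1 lower and 1221 of all probe sets in place of 4327, as its threshold requires. With 1 array left out in turn, 3 to 4 NAD genes were called higher, 5 were called lower each time, and 4053 to 4279 probe sets were called in all; the gene that came and went was BNA4. With the replicate number as a block, 4 NAD genes were called higher and 5 lower, and 4453 probe sets in all; the gene added was BNA4 (0.18, adjusted p = 0.00575). The numbers share no stated day or parent, and methanol replicate 2 did not correlate best with its own number. QNS1 kept its call without any 1 array (adjusted p = 0.00277 to 0.0429). Precision is set by having 3 arrays a group, with a median SE of 0.0527 over all probe sets.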

Other observations

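Sum1, whose message was lower in the deposited scaling, is known in yeast for keeping middle sporulation genes silent in growing cells. Of 10 such genes 1 rose, 5 fell and 4 were not called (median -0.38), beside 78.7% of all probe sets called, 36.8% higher and 41.9% lower. Of the 4 not called, SPS2 (3.95 and 3.94) and CDA2 (4.77 and 4.80) lay in both groups below the brightest control probe set without a yeast target (5.15), so no count is given against the spike-ins. SPS4 read 9.87 to 10.12 in methanol and 7.48 to 7.65 in LoaOOH and fell 5.32-fold (difference -2.41, SE 0.074, adjusted p = 1.2e-08). SPS1 fell too (difference -0.80, adjusted p = 1.31e-06). Against the spike-ins SPS4 was called lower (-1.89, adjusted p = 0.00545) and SPS1 was not called (-0.29, adjusted p = 0.0631). SMK1, a sporulation kinase gene, read 5.71 to 5.91 in methanol and 6.10 to 6.35 in LoaOOH. Its methanol values lay close above the control level of 5.15. SMK1 rose by 0.39 (adjusted p = 0.00113), and by 0.91 against the spike-ins (adjusted p = 0.00356). CDA1 read 5.63 to 5.94 in methanol and 4.87 to 5.17 in LoaOOH, where its mean lay below the same control level, so no fold is given.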
